A study of Mus musculus with 12 samples.

Results

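The 9 RNA-Seq libraries of manipulated U2OS cells were compared with the 3 libraries of blank U2OS cells, and genes were sought that moved in the same direction under every manipulation. U2OS is a human osteosarcoma cell line. The manipulated libraries formed 3 groups of 3 replicates: cells that overexpressed the long non-coding RNA LINC01134 (OE-LINC01134), and cells that received one of 2 small interfering RNAs against the splicing factor SRSF1 (siSRSF1-2 and siSRSF1-3). Blank cells received neither. A gene was counted as shared when its value in all 9 manipulated libraries lay above, or in all 9 below, the values of the 3 blank libraries. Of 58735 genes listed, 17538 had a mean of at least 0.5 FPKM (fragments normalised to gene length and library size by the authors) and were tested. Of these, 525 (2.99%) were above and 583 (3.32%) below in all 9, 1108 genes (6.32%) together. No library of cells given a control siRNA or an empty vector was among the samples, so what the delivery of nucleic acid did and what the 3 manipulations themselves did cannot be told apart. The series gives no day, passage or flask for a library, so a difference in handling and the manipulations cannot be told apart either. The paper's methods place siRNA transfection in HOS, another osteosarcoma line, and state an siRNA concentration and a harvest time there, while the labels give U2OS and no dose or time. How LINC01134 was overexpressed was not given in the sources used here.

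SRSF1 is an SR protein, a family that binds exons and directs the choice of splice sites. Small interfering RNAs lower the messenger RNA they match through the RNA-induced silencing complex, and double-stranded or plasmid nucleic acid that enters a cell can be sensed by the interferon pathway. Osteosarcoma cells descend from the bone-forming lineage. They secrete collagens and other matrix proteins, cut them with metalloproteinases and the plasminogen activator system, and use glycolysis even when oxygen is present.

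Libraries held 26237763 to 32954539 reads on genes (median 27538708.5). The scaling behind the FPKM divided siSRSF1-3 replicate 1 by 0.712 times its reads on genes and replicate 2 by 0.888 times. Replicates of a group were unequally close. Pairs of siSRSF1-2 libraries differed by 2.17 to 2.55 times counting noise (median chi-square ratio over genes), OE-LINC01134 replicates 1 and 3 by 1.91 times and blank replicates 2 and 3 by 2.22 times. Blank replicate 1 differed from the other blank libraries by 22.7 and 23.5 times counting noise, and OE-LINC01134 replicate 2 from its own group by 24.2 and 24.9 times. These libraries differed from each other by 13.8 times counting noise, less than either did from its own group. Pairs of siSRSF1-3 libraries stood 17.6 to 63.6 times counting noise apart. Replicate 3 of siSRSF1-3 differed from its own group by 34.7 and 63.6 times and from the siSRSF1-2 libraries by 11.5 to 14 times. Nothing in the labels says that replicates came from separate cultures, and the supplementary methods describe another number of biological replicates per condition than the 3 labelled, so p-values measure the spread between these libraries, which may be technical. Counts and lists were therefore also computed without blank replicate 1 and OE-LINC01134 replicate 2. This setting was chosen after the data were seen. Leaving out libraries cannot lower the number of genes on one side, so a larger share there is no independent support.

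The targeted genes were measured first. SRSF1 (ENSG00000136450, chromosome 17 from 58003360 to 58007346, coordinates as the table lists them, in a human build not named in the sources used here) was at 35.9, 19.8 and 20.5 FPKM in the blank libraries. It was at 31.8, 29.6 and 30.3 FPKM in the OE-LINC01134 libraries, 7.09, 7.46 and 7.41 with siSRSF1-2 and 3.33, 6.81 and 7.902 with siSRSF1-3. Each of the 6 siRNA libraries was below every blank library, and the OE-LINC01134 libraries lay inside the blank range, so SRSF1 was not among the shared genes. The log2 difference between manipulated and blank libraries was -1.16 on the log2(FPKM + 0.1) scale (exact two-sided permutation test over the 12 libraries, p = 0.132, where the smallest possible p is 0.00455). LINC01134 (ENSG00000236423, chromosome 1 from 3900372 to 3917225) was at 0.791, 0.519 and 0.497 FPKM in the blank libraries and at 891, 1279 and 878 in the OE-LINC01134 libraries. In the siRNA libraries it stayed between 0.548 and 1.11 FPKM, a range that overlapped the blank libraries. The exact permutation p of the pooled difference was 0.191.

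Genes were also tested with limma over the 12 libraries, with 1 mean per group, for the mean of the 3 manipulated groups minus the blank group. A gene passed when its p, adjusted by the Benjamini-Hochberg method, was under 0.05 and it had a log2 fold change over 1 in size. By this threshold 121 genes (0.69%) were higher and 318 (1.81%) lower in the manipulated cells, 439 (2.5%) in all. The counts were 290 and 576 when the p was left unadjusted. Over all genes tested the median log2 fold change was 0.03. Both criteria were met by 50 genes above (0.285% of genes tested) and 184 below (1.05%), and both criteria use the same values. With single manipulations against blank in the same fit, 174 genes (0.992%) were higher and 515 (2.94%) lower in OE-LINC01134. The counts were 134 (0.764%) and 180 (1.03%) with siSRSF1-2, and 1245 (7.1%) and 1177 (6.71%) with siSRSF1-3, which became 2485 and 2440 without siSRSF1-3 replicate 3. The 3 comparisons share the blank libraries. After scaling by reads on genes alone, the siSRSF1-3 split became 664 higher and 1782 lower, and its median over all genes moved from -0.01 to -0.26. When all libraries were given an equal FPKM sum the split was 393 and 2195 and the median -0.44.

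The number of genes called depended on which libraries were present, as the plot of counts with libraries left out shows. Without blank replicate 2, 21 genes were higher and 19 lower, and without blank replicate 3, 14 and 13. Without OE-LINC01134 replicate 2 there were 229 and 580, and without siSRSF1-3 replicate 3 there were 266 and 568. Leaving out any 1 of OE-LINC01134 replicates 1 and 3, the siSRSF1-2 libraries or siSRSF1-3 replicate 2 gave 62 to 80 higher and 138 to 192 lower. Without blank replicate 1 and OE-LINC01134 replicate 2 together there were 191 and 663. When the near-identical libraries were averaged, which leaves 8 profiles and 1 of siSRSF1-2 that is assumed to vary like the others, limma called 0 genes higher and 0 lower, although 219 and 336 passed at an unadjusted p under 0.05. The calls that follow are read with this in mind. Of the 51 named genes that passed, 11 also passed without blank replicate 2 and 9 without blank replicate 3. These 9 were LINC01134, ANGPT2, PTPN7, MAL2, NFE4, CCL2, COL11A1, CCND1 and LDHA, and they passed without each of the 12 libraries in turn.

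**Figure D1:**
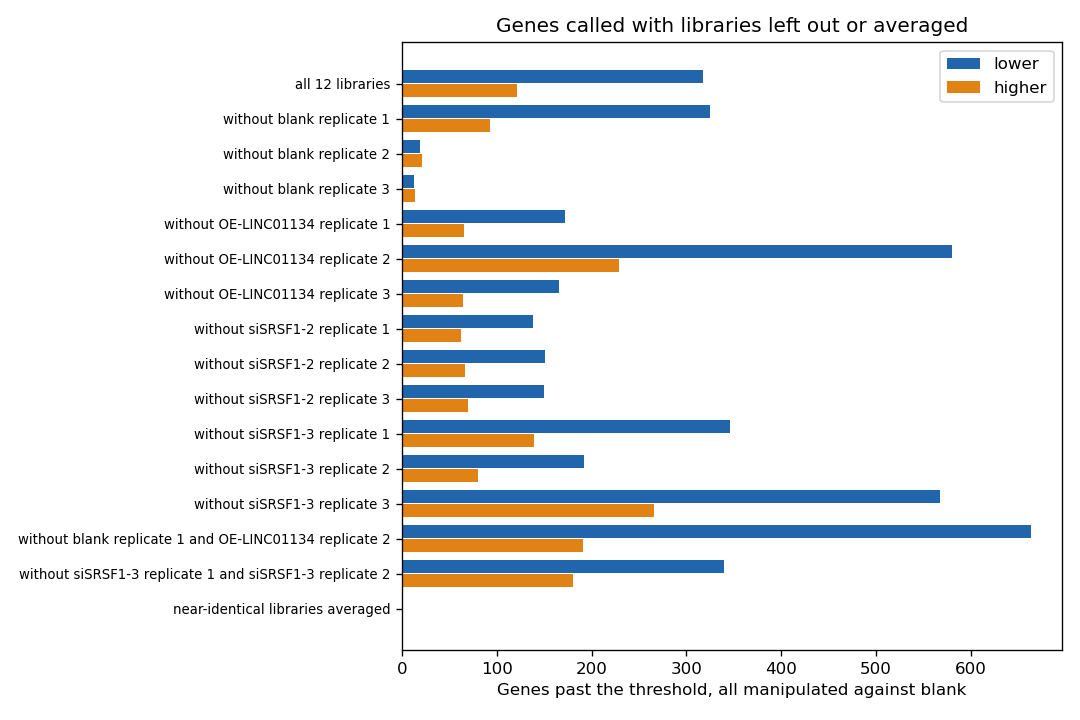
Genes past the limma threshold in manipulated against blank cells (horizontal axis, number of genes), lower in blue and higher in orange, with all 12 libraries, with libraries left out and with near-identical libraries averaged. The bars run from 318 lower and 121 higher with all libraries to 13 and 14 without blank replicate 3, 663 and 191 without blank replicate 1 and OE-LINC01134 replicate 2, and 0 with averaged libraries.

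The genes above blank in all 9 libraries included an angiogenic ligand, a tyrosine phosphatase, several receptors of the immunoglobulin or scavenger type and transcriptional regulators. The 12 named here passed the threshold, reached a mean of 1 FPKM in blank or manipulated cells, and had the largest values of their weakest single log2 fold change. They were chosen by these values, so the sizes describe them. ANGPT2 (ENSG00000091879, chromosome 8 from 6499651 to 6563409), which encodes angiopoietin-2, a ligand of the TIE2 receptor, was at 0.496, 0.364 and 0.388 FPKM in blank cells. The manipulated libraries ranged from 2.06 to 5.37, with a median of 2.67, so that the lowest of them was over 4 times the highest blank library. Its log2 fold change was 2.63 ± 0.14 SE, adjusted p = 1.16e-05 from limma, and it passed under every alternative setting except the averaged libraries. The change was larger with siSRSF1-2 than with the other manipulations (2.30 in OE-LINC01134, 3.32 with siSRSF1-2 and 2.28 with siSRSF1-3), a difference that passed an F test among the 3 manipulations (adjusted p = 0.0043 from limma). An overlapping gene on the opposite strand, microcephalin 1, had a mean of 1.92 FPKM in blank and 2.40 in manipulated cells.

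PTPN7 (ENSG00000143851, chromosome 1 from 202147013 to 202161588), a tyrosine phosphatase that acts on MAP kinases, was at 2.19, 2.01 and 1.94 FPKM in the blank libraries and ranged from 4.57 to 6.45, with a median of 5.89 in the manipulated ones. The log2 fold change was 1.45 ± 0.10 SE, adjusted p = 9.32e-05 from limma. It was nearly equal in the 3 groups at 1.55 in OE-LINC01134, 1.49 with siSRSF1-2 and 1.30 with siSRSF1-3, and the F test among manipulations gave an adjusted p of 0.202 from limma. FGF2, a fibroblast growth factor named with the growth factors, was likewise higher, from 3.66, 4.35 and 4.21 FPKM to values from 7.05 to 12.8, with a median of 8.17 (log2 fold change 1.10 ± 0.17 SE, adjusted p = 0.00823 from limma).

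NFE4 (ENSG00000230257, chromosome 7 from 102973437 to 102988856), annotated as an erythroid nuclear factor, was at 17.6, 12.1 and 11.4 FPKM in blank cells and ranged from 27.6 to 90.1, with a median of 43.3 in manipulated cells (log2 fold change 1.75 ± 0.22 SE, adjusted p = 0.00525 from limma). Its change was smallest with siSRSF1-2 (1.94 in OE-LINC01134, 1.08 with siSRSF1-2 and 2.23 with siSRSF1-3, adjusted p = 0.0183 from limma's F test). The gene lies inside FBXL13, on the opposite strand, whose mean was 18.2 FPKM in blank and 38.8 in manipulated cells. Whether counting used strand was not given in the sources used here, so reads of this pair may be shared. KLF15, a zinc finger factor of the Kruppel-like family that acts in glucocorticoid and metabolic responses, was at 0.659, 1.04 and 1.11 FPKM in blank cells and 6.96, 2.09 and 6.85 FPKM in the OE-LINC01134 libraries. The siSRSF1-2 libraries gave 2.74, 2.91 and 2.54 and the siSRSF1-3 libraries 3.03, 4.35 and 4.27 (log2 fold change 1.89 ± 0.32 SE, adjusted p = 0.0122 from limma). OE-LINC01134 replicate 2 was the lowest of the 9, as it was in several of these genes.

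Among receptors and membrane proteins, OSCAR, an immunoglobulin-like receptor first described in osteoclasts, was at 9.06, 33.7 and 30.9 FPKM in the blank libraries and ranged from 49.4 to 138, with a median of 66.6 in the manipulated ones (log2 fold change 1.71 ± 0.35 SE, adjusted p = 0.0211 from limma). Blank replicate 1 was far below the other blank libraries in this gene. The same held for KLHDC7B, a kelch domain protein, at 0.408, 2.26 and 1.89 FPKM in blank cells and from 2.73 to 6.35, with a median of 4.72 in manipulated cells, and for AKNA, at 2.59, 7.49 and 7.23 and from 10.4 to 21.3, with a median of 12.2. KLHDC7B and AKNA lost the call without any 1 of 9 of the 12 libraries. The same held for MIR6124, ITGB3, ITGA6, KIF20A, OAS1, CRYAB and F3, which are described below. MSR1, a macrophage scavenger receptor, was at 0.199, 0.522 and 0.669 FPKM in blank cells and ranged from 0.834 to 2.103, with a median of 1.53 elsewhere (log2 fold change 1.62 ± 0.31 SE, adjusted p = 0.0172 from limma). PILRA, an inhibitory paired receptor, was at 0.738, 0.281 and 0.518 FPKM and ranged from 0.912 to 2.29, with a median of 1.47, and MAL2, a protein of transcytosis, was at 0.59, 1.01 and 1.03 and ranged from 1.77 to 3.84, with a median of 2.73. The response of MAL2 was strongest with siSRSF1-3 (1.43 in OE-LINC01134, 1.13 with siSRSF1-2 and 1.94 with siSRSF1-3, adjusted p = 0.0449 from limma's F test). The immune-type receptors were thus low in level, except OSCAR. Of the markers of blood cells, PTPRC, CD3E, CD68 and CD14 reached at most 0.164 FPKM in any library, while HBB, a haemoglobin chain of red cells, was at 5.93 to 50.9.

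Both non-coding RNAs in this set rested on few reads. LINC02516 was at 4, 20 and 21 reads in the blank libraries and 21 in OE-LINC01134 replicate 2, against 44 to 102 in the other manipulated libraries. SNORD11, a box C/D small nucleolar RNA inside NOP58, had 1, 0 and 1 reads in the blank libraries and between 1 and 11 in the manipulated ones, which is near the floor of 3 reads that a count of 0 allows by counting error alone. A non-coding change at higher levels was seen at ENSG00000285722, a lincRNA without a name on chromosome 22 from 49372924 to 49377119, which was picked out after its values were seen. It was at 15.8, 14.4 and 15.7 FPKM in blank cells, 32.5, 23.7 and 31.4 FPKM in OE-LINC01134, 120.2, 127 and 129.8 with siSRSF1-2 and 178, 129.5 and 98.3 with siSRSF1-3 (log2 fold change 2.34 ± 0.16 SE, adjusted p = 9.32e-05 from limma).

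**Figure D2:**
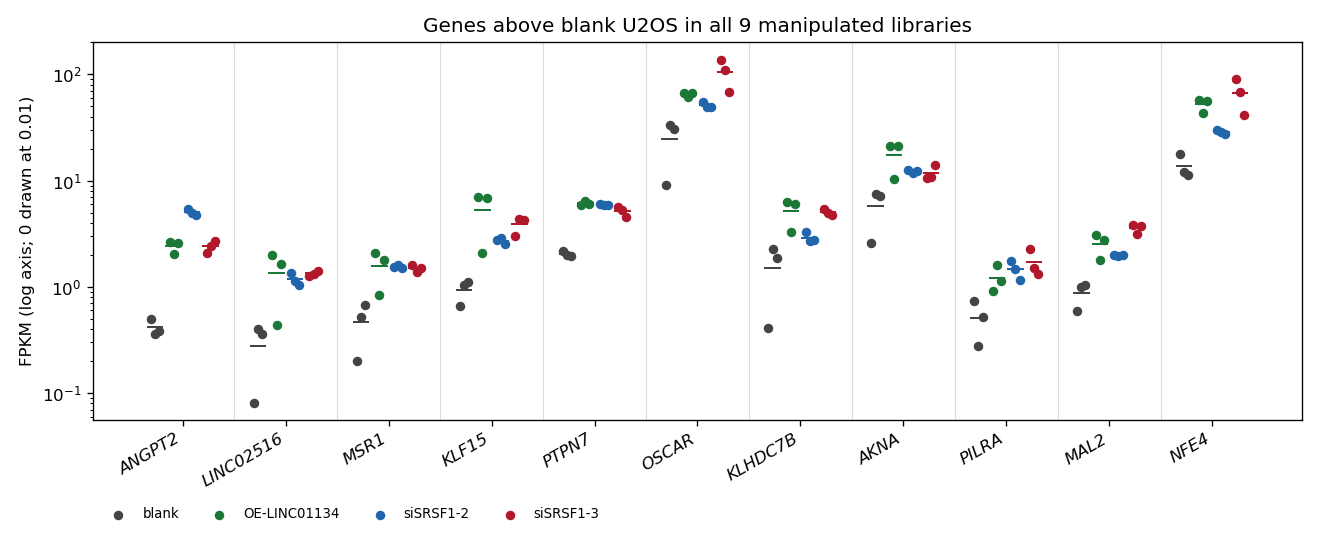
FPKM (vertical axis, log scale) of 11 named genes in the 12 libraries, where points are libraries coloured by group in replicate order and short lines are group means. In every gene each manipulated point lies above the blank points: PTPN7 libraries lie close together at 4.57 to 6.45, and OSCAR, KLHDC7B and AKNA show blank replicate 1 well below the other blank libraries.

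The 12 named genes below blank in all 9 libraries included secreted proteins, membrane enzymes and cytoskeletal adaptors, and were chosen by the same rule. PLAU (ENSG00000122861, chromosome 10 from 73909177 to 73917497), the urokinase that activates plasminogen, was at 30.01, 33.3 and 34.1 FPKM in blank cells. The OE-LINC01134 libraries gave 1.98, 13.6 and 1.66 FPKM, the siSRSF1-2 libraries 4.82, 4.68 and 5.23 and the siSRSF1-3 libraries 5.896, 8.12 and 5.84. OE-LINC01134 replicate 2 was nearest to the blank values, and all 9 were below them (log2 fold change -2.71 ± 0.48 SE, adjusted p = 0.014 from limma). The tissue-type activator PLAT was lower as well, from 13.8, 14.7 and 16.1 FPKM in blank cells to values from 1.29 to 11.9, with a median of 2.89 (log2 fold change -2.27 ± 0.36 SE, adjusted p = 0.00935 from limma).

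ADAM19 (ENSG00000135074, chromosome 5 from 157395534 to 157575775), a membrane metalloproteinase that sheds growth factor precursors, was at 21.7, 21.6 and 20.95 FPKM in the blank libraries, a spread of only 0.389 (SD, n = 3), and ranged from 2.95 to 11.6, with a median of 5.76 in the manipulated ones (log2 fold change -2.03 ± 0.34 SE, adjusted p = 0.0122 from limma). MMP2 and MMP14, the gelatinase and the membrane-anchored enzyme that activates it, fell with them. MMP14 was at 36.2, 45.4 and 44.9 FPKM in blank cells and ranged from 11.2 to 33.9, with a median of 17.4 (log2 fold change -1.22 ± 0.20 SE, adjusted p = 0.011 from limma). MMP2 was at 39.8, 54.2 and 55.1 FPKM and ranged from 14.5 to 39.4, with a median of 19.97 (log2 fold change -1.09 ± 0.17 SE, adjusted p = 0.0101 from limma), with the siSRSF1-3 libraries closest to blank (-1.48 in OE-LINC01134, -1.35 with siSRSF1-2 and -0.44 with siSRSF1-3, adjusted p = 0.0112 from limma's F test). Of 24 matrix proteases and inhibitors tested, 9 were lower and 0 higher past the threshold, and 7 (29.2%) were below blank in all 9 libraries: PLAU, PLAT, MMP2, MMP14, MMP15, ADAM19 and LOXL2. The other 2 that fell were MMP10 and TIMP3, an inhibitor of metalloproteinases. The median log2 fold change of the list was -0.93, against 0.03 for all genes. Of all genes tested, 1.81% were lower past the threshold and 3.32% below in all 9. Without blank replicate 1 and OE-LINC01134 replicate 2, 15 of 24 (62.5%) lay below, where 10.8% of all genes did. Without blank replicate 2, 0 passed the threshold and 8 (33.3%) lay below, beside 4.04% of all genes. Without blank replicate 3, 0 passed and 7 (29.2%) lay below, beside 3.93%.

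Collagens and matrix proteins showed 8 lower and 0 higher of 33 tested, beside 1.81% and 0.69% of all genes. Below in all 9 were 6 (18.2%) of the list, beside 3.32%, and the median was -0.59. With an equal FPKM sum in all libraries, 4 were lower and 3 (9.09%) below in all 9. Without blank replicate 2, 2 were lower, and without blank replicate 3, 1. TGFBI, an adhesive matrix protein induced by TGF-beta, was at 6.01, 12.2 and 12.02 FPKM in blank cells and ranged from 1.18 to 4.97, with a median of 1.24 (log2 fold change -2.60 ± 0.35 SE, adjusted p = 0.00684 from limma). COL11A1, a fibrillar collagen of cartilage and bone, was at 2.83, 5.27 and 5.31 FPKM and ranged from 0.656 to 1.71, with a median of 1.08 (log2 fold change -1.88 ± 0.22 SE, adjusted p = 0.0047 from limma). The proteoglycan LUM was at 2.97, 4.28 and 4.604 FPKM and fell most with OE-LINC01134 (-3.38 in OE-LINC01134, -1.26 with siSRSF1-2 and -1.39 with siSRSF1-3, adjusted p = 0.00284 from limma's F test). COL5A2, COL6A1 and the fibronectin gene FN1 were the other 3 below in all 9. FN1 averaged 73.9 ± 10.9 FPKM (SD, n = 3) in blank cells and had a median of 38.3 in manipulated cells. COL4A1 and SMOC1 passed the threshold but overlapped the blank range. CTHRC1, a secreted protein with collagen repeats, was at 2.11, 3.59 and 4.01 FPKM in blank cells and ranged from 0.389 to 1.24, with a median of 0.753 (log2 fold change -1.92 ± 0.29 SE, adjusted p = 0.00838 from limma).

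Of 11 integrins, 3 (27.3%) were below blank in all 9 libraries and 1 (9.09%), ITGB4, above, beside 3.32% and 2.99% of all genes. ITGB3 passed the threshold, from 1.2, 1.59 and 1.63 FPKM in blank cells to values from 0.0557 to 0.766, with a median of 0.347 (log2 fold change -1.997 ± 0.46 SE, adjusted p = 0.0322 from limma), and ITGA5 and ITGA7 did not. ITGA2 and ITGA6 passed and overlapped the blank range, in each case through OE-LINC01134 replicate 2 (5.49, 13.7 and 5.47 FPKM of ITGA6 in the OE-LINC01134 libraries against 17.9, 12.5 and 12.8 in blank cells). With an equal FPKM sum in all libraries, limma passed 0 integrins (3 at an unadjusted p as deposited).

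The largest log2 falls among the 12 were those of CA12 and STC1. CA12 (ENSG00000074410, chromosome 15 from 63321378 to 63382161), a membrane carbonic anhydrase that regulates acidity outside the cell, was at 1.74, 5.05 and 5.17 FPKM in blank cells and from 0.0813 to 1.35, with a median of 0.189 in manipulated cells (log2 fold change -3.68 ± 0.60 SE, adjusted p = 0.0108 from limma). STC1, a secreted glycoprotein hormone of calcium and phosphate balance, was at 0.374, 4.03 and 3.5002 FPKM in blank cells, where blank replicate 1 was close to the manipulated libraries, and ranged from 0 to 0.291, with a median of 0.0664 (log2 fold change -3.47 ± 0.65 SE, adjusted p = 0.0161 from limma). These values came from 0 to 33 reads in the manipulated libraries and 43 to 475 in the blank ones. CCL2 (ENSG00000108691, chromosome 17 from 34255218 to 34257203), the chemokine that attracts monocytes, was at 4.07, 2.89 and 3.62 FPKM and ranged from 0.317 to 0.903, with a median of 0.392 (log2 fold change -2.65 ± 0.30 SE, adjusted p = 0.00362 from limma). Its single changes were -2.63 in OE-LINC01134, -2.58 with siSRSF1-2 and -2.74 with siSRSF1-3, with an adjusted p of 0.919 from limma's F test among them.

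ENPP1, an ectoenzyme that makes the mineralisation inhibitor pyrophosphate, was at 1.17, 1.76 and 1.704 FPKM in blank cells and ranged from 0.154 to 0.684, with a median of 0.235 (log2 fold change -2.16 ± 0.34 SE, adjusted p = 0.00903 from limma). PDLIM1, an adaptor on actin stress fibres, was at 1.82, 2.51 and 2.65 FPKM and ranged from 0.139 to 1.05, with a median of 0.334 (log2 fold change -2.46 ± 0.35 SE, adjusted p = 0.00684 from limma). LBH, a transcriptional cofactor downstream of Wnt signalling, was at 8.51, 5.595 and 5.16 FPKM. Here OE-LINC01134 replicate 2, at 4.98 FPKM, was close to the lowest blank value of 5.16, while the other 8 manipulated libraries were at 0.695 to 1.61. DEPP1, a FOXO target linked to autophagy, was at 4.098, 17.4 and 16.2 FPKM and ranged from 0.599 to 3.304, with a median of 2.42 (log2 fold change -2.46 ± 0.46 SE, adjusted p = 0.0164 from limma). RASSF4, which overlaps it on the opposite strand, had means of 2.19 and 0.687 FPKM. MIR6124, a microRNA precursor inside MICAL2, had 3, 5 and 6 reads in the blank libraries and at most 3 in a manipulated library, so no fold change is given.

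**Figure D3:**
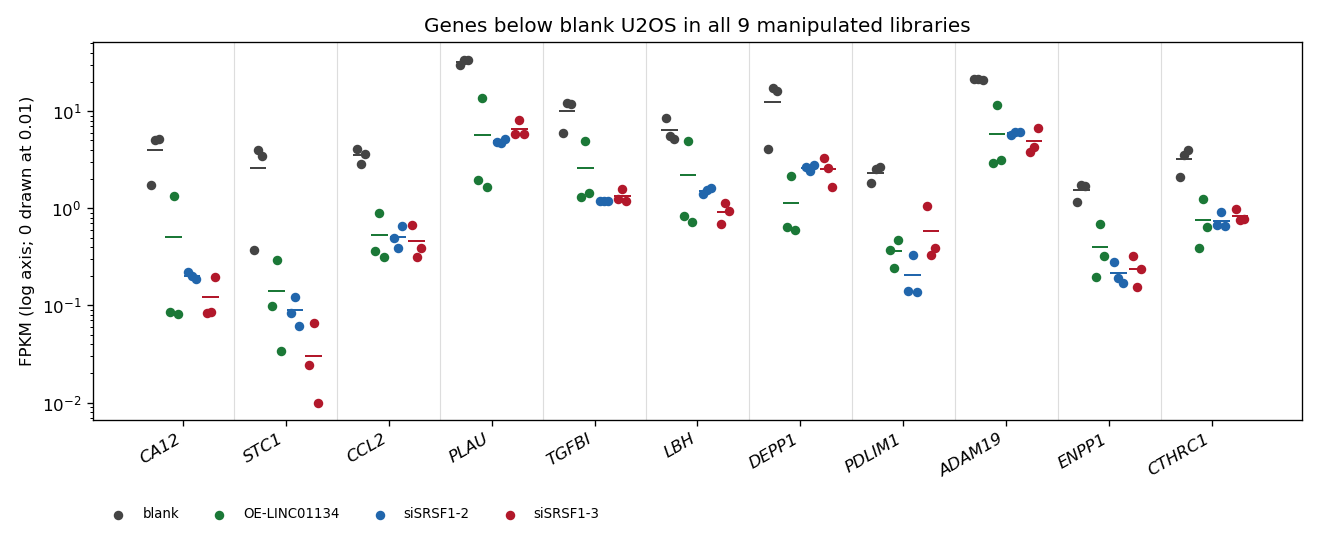
FPKM (vertical axis, log scale, with 0 drawn at 0.01) of 11 named genes in the 12 libraries, where points are libraries coloured by group in replicate order and short lines are group means. Each manipulated point lies below the blank points of its gene, and OE-LINC01134 replicate 2 is the nearest to blank for PLAU (13.6), ADAM19 (11.6) and LBH (4.98).

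The Wnt and Notch pathways pattern bone and connective tissue. Of 19 genes tested, 6 were lower and 0 higher past the threshold, beside 1.81% and 0.69% of all genes. In this list 5 (26.3%) were below in all 9 libraries, beside 3.32%, and the median was -0.58. Without blank replicate 2, 0 of the 19 passed, and without blank replicate 3 also 0. The ligand WNT5A was at 1.99, 2.73 and 2.58 FPKM in blank cells and ranged from 0.638 to 1.26, with a median of 1.04 (log2 fold change -1.26 ± 0.18 SE, adjusted p = 0.00706 from limma). Of the receptors, FZD8 was at 2.08, 3.32 and 3.26 FPKM and ranged from 0.671 to 1.38, with a median of 1.098 (log2 fold change -1.42 ± 0.22 SE, adjusted p = 0.00833 from limma), and FZD4 averaged 1.42 ± 0.210 FPKM (SD, n = 3) in blank cells with a manipulated median of 0.578. SFRP1, a secreted antagonist of Wnt ligands, fell too, from 5.11, 3.96 and 4.01 FPKM to values from 0.674 to 3.46, with a median of 1.11. AXIN2, a target that feeds back on the pathway, was below in all 9 but missed the fold change (log2 fold change -0.88, adjusted p = 0.0366 from limma). The list thus held a ligand, receptors and an inhibitor together. NOTCH3 and the ligand JAG1 passed but overlapped blank.

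CCND1 (ENSG00000110092, chromosome 11 from 69641087 to 69654474), the cyclin D1 gene that drives passage through G1, was at 40.5, 29.8 and 29.7 FPKM in blank cells. The OE-LINC01134 libraries gave 8.29, 17.6 and 8.64 FPKM, the siSRSF1-2 libraries 10.99, 10.8 and 11.8 and the siSRSF1-3 libraries 5.47, 5.57 and 6.76. All 9 were below blank (log2 fold change -1.87 ± 0.21 SE, adjusted p = 0.00337 from limma), with the largest change for siSRSF1-3 (-1.60 in OE-LINC01134, -1.55 with siSRSF1-2 and -2.46 with siSRSF1-3, adjusted p = 0.0262 from limma's F test). CDKN2B, an inhibitor of the kinases that cyclin D activates, fell as well (log2 fold change -2.12 ± 0.34 SE, adjusted p = 0.0107 from limma). Of 14 cyclin D, CDK and inhibitor genes tested, 2 were lower, 0 higher and 3 (21.4%) below in all 9, the last of these CCND3. The shares of all genes were 1.81% lower, 0.69% higher and 3.32% below. The wider cell cycle did not share a direction among the groups. The 35 DNA replication genes had median log2 fold changes of 0.31 in OE-LINC01134, -0.57 with siSRSF1-2 and -0.43 with siSRSF1-3, with 0 called by limma in the pooled contrast (0 higher and 2 lower at an unadjusted p, 0 and 1 with voom on recovered reads). By the F test 30 of 35 differed among the manipulations, beside 44.1% of all genes tested. Of 29 mitosis genes 1, KIF20A, was lower and 0 were on a single side. Blank replicate 1 was above the blank mean by a median of 0.50 over the replication genes, and without it and OE-LINC01134 replicate 2 the pooled medians of both lists, -0.20 and -0.18, became 0.00410 and 0.02.

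Of 29 glycolysis and hypoxia-response genes tested, 6 were lower and 0 higher past the threshold, beside 1.81% and 0.69% of all genes. In this list 7 (24.1%) were below in all 9, beside 3.32%, and the median was -0.47. PGK1, phosphoglycerate kinase, was at 114, 157 and 163 FPKM in blank cells and ranged from 48.6 to 95.2, with a median of 65.7 (log2 fold change -1.09 ± 0.15 SE, adjusted p = 0.00684 from limma). The glucose transporter SLC2A1 was at 25.5, 26.8 and 27.8 FPKM and ranged from 11.7 to 22.6, with a median of 15.7, with a log2 fold change of -0.73 that did not reach the threshold. LDHA, lactate dehydrogenase A, passed (log2 fold change -1.39 ± 0.17 SE, adjusted p = 0.00494 from limma) but was not below in all 9, since OE-LINC01134 replicate 2 at 160 FPKM exceeded the lowest blank library at 157. Its change differed among the manipulations (-0.64 in OE-LINC01134, -2.05 with siSRSF1-2 and -1.47 with siSRSF1-3, adjusted p = 0.00445 from limma's F test). PGAM1, HK1, PFKFB3 and PFKFB4 were also below in all 9, and ALDOC, P4HA1 and ANGPTL4 passed but overlapped blank. ALDOA was below in all 9 too, but its reads may be split with an overlapping second entry for the same enzyme, and its FPKM of 2.25 in blank cells is uncertain. Without blank replicate 1 and OE-LINC01134 replicate 2, 17 of 29 (58.6%) were below, beside 10.8% of all genes. With an equal FPKM sum in all libraries, 3 passed as lower and 5 (17.2%) were below in all 9. Without blank replicate 2, 1 passed as lower, and without blank replicate 3 also 1.

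Cholesterol synthesis genes, targets of the SREBP2 transcription factor, held the highest share below blank among the 23 lists. Of 21 tested, 9 (42.9%) were below in all 9 libraries, beside 3.32% of all genes tested, and 0 above. All 21 had a negative pooled log2 fold change with a median of -0.66. The changes were small, and 1 gene, ACAT2, passed the threshold. DHCR7, the reductase of the last step of cholesterol synthesis, was at 32.4, 27.2 and 27.4 FPKM in blank cells and ranged from 9.98 to 20.8, with a median of 18.3 (log2 fold change -0.81 ± 0.16 SE, adjusted p = 0.0182 from limma). SQLE, the epoxidase of a rate-limiting step, was at 37.4, 23.2 and 23.6 FPKM and ranged from 9.905 to 21.6, with a median of 15.2 (log2 fold change -0.87 ± 0.17 SE, adjusted p = 0.0195 from limma). IDI1, an isomerase earlier in the pathway, was at 6.23, 5.16 and 5.397 FPKM and ranged from 2.28 to 4.14, with a median of 3.17 (log2 fold change -0.81 ± 0.14 SE, adjusted p = 0.0139 from limma). FDFT1 and FDPS, which act at other steps of the pathway, were also below in all 9. The group medians were -0.71, -0.44 and -0.81 for OE-LINC01134, siSRSF1-2 and siSRSF1-3. Without blank replicate 1 and OE-LINC01134 replicate 2, 11 of 21 (52.4%) were below, beside 10.8% of all genes. With each library scaled to its own reads there were 10 (47.6%), beside 4.06%, and 3 passed as lower. Leaving out blank replicate 1, 2 or 3 gave 0 that passed. Then 10, 9 and 10 lay below, beside 7.42%, 4.04% and 3.93% of all genes.

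**Figure D4:**
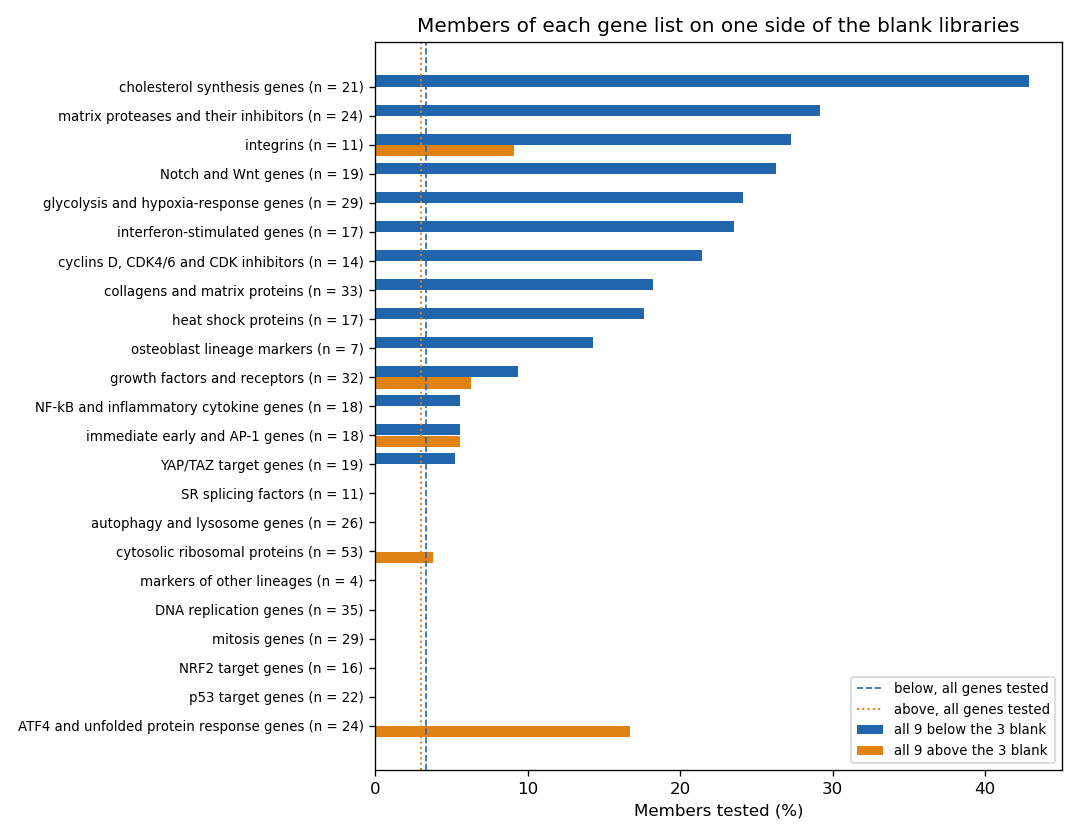
Share of tested members of each of 23 gene lists (horizontal axis, percent) for which all 9 manipulated libraries lay below (blue) or above (orange) the 3 blank libraries, with the shares of all genes tested, 3.32% and 2.99%, as dashed and dotted lines. Cholesterol synthesis genes reach 42.9% below and matrix proteases 29.2%, while ATF4 and unfolded protein response genes reach 16.7% above.

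Interferon-stimulated genes did not pass as higher in the pooled contrast. Whether the cells sensed the nucleic acid was not tested, since no library of a control siRNA or an empty vector was present. Of 17 tested, 0 were higher and 2 lower, beside 0.69% and 1.81% of all genes. In this list 4 (23.5%) were below in all 9 libraries, beside 3.32%, and the median was -0.66. IFIT3 was at 2.33, 2.29 and 2.32 FPKM in blank cells and ranged from 0.288 to 1.74, with a median of 0.765 (log2 fold change -1.33 ± 0.31 SE, adjusted p = 0.0323 from limma). OAS1 was at 1.42, 0.882 and 0.983 FPKM and ranged from 0.0767 to 0.651, with a median of 0.318 (log2 fold change -1.55 ± 0.40 SE, adjusted p = 0.0456 from limma). The RNA sensor RIGI was at 8.09, 7.09 and 7.82 FPKM and ranged from 2.34 to 6.25, with a median of 4.15, with the smallest change for siSRSF1-2 (-1.39 in OE-LINC01134, -0.37 with siSRSF1-2 and -0.94 with siSRSF1-3, adjusted p = 0.0145 from limma's F test). With siSRSF1-3 alone 6 members were lower and 1, IFI35, was higher (log2 fold change 1.23 ± 0.42 SE, adjusted p = 0.0495 from limma), with 3 lower in OE-LINC01134 and 0 called with siSRSF1-2. Over all genes tested, 6.71% were lower and 7.1% higher with siSRSF1-3, and 2.94% were lower in OE-LINC01134. By the F test 11 of 17 differed among the manipulations, beside 44.1% of all genes tested. The calls of IFIT3 and OAS1 were lost without any 1 of several libraries, blank replicates 2 and 3 among them.

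Inflammatory cytokine genes depended on the blank libraries. Of 18 tested, 2 were lower, CCL2 and CSF2, and 0 higher, beside 1.81% and 0.69% of all genes. The list's median of 0.20 turned to -0.50 without blank replicate 1, whose own median lay 1.51 below the blank mean. CSF2 was at 2.02, 23.4 and 25.1 FPKM in the blank libraries and ranged from 0.307 to 3.95, with a median of 1.46 in the manipulated ones. CXCL1 had 138 and 141 reads in blank replicates 2 and 3 and 0 reads in blank replicate 1 and in all 9 manipulated libraries, and did not pass (adjusted p = 0.0604 from limma). CCL2 was the member whose 3 blank libraries were alike.

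ATF4 and unfolded protein response genes were the list with the largest share above blank. Of 24 tested, 4 (16.7%), SESN2, SLC3A2, HERPUD1 and DNAJB9, were above in all 9 libraries, beside 2.99% of all genes tested. The median was 0.30. With an equal FPKM sum in all libraries, 2 were above and 1 below, beside 1.67% and 3.26% of all genes. With own read totals, 3 were above and 1 below, beside 1.78% and 4.06%. SLC3A2, the heavy chain of amino acid transporters, was at 124, 141 and 139 FPKM in blank cells and ranged from 175 to 379, with a median of 244 (log2 fold change 0.89 ± 0.19 SE, adjusted p = 0.0239 from limma). FGF21, a stress hormone, passed in the pooled contrast but was not shared. It was at 6.097, 7.57 and 6.07 FPKM in blank cells and at 6.96, 5.28 and 6.11 with siSRSF1-2, against 55.3, 28.3 and 52.4 with OE-LINC01134 and 29.2, 25.2 and 17.4 with siSRSF1-3 (adjusted p = 0.000564 from limma's F test). DDIT4, also an ATF4 target, was lower, from 70.5, 98.3 and 96.5 FPKM to values from 11.03 to 92.5, with a median of 33.8 (log2 fold change -1.29 ± 0.30 SE, adjusted p = 0.0327 from limma). The median was 0.40 in OE-LINC01134, 0.02 with siSRSF1-2 and 0.52 with siSRSF1-3.

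Other lists gave few shared genes. For comparison, 3.32% of all genes tested were below and 2.99% above in all 9, and 1.81% passed as lower and 0.69% as higher. Of 17 heat shock genes, 3 (17.6%), HSPA1B, BAG3 and CRYAB, were below in all 9 and CRYAB passed (46.3, 28.3 and 29.9 FPKM in blank cells, from 8.47 to 26.8, with a median of 13.2 in manipulated cells). The median of -0.59 moved to -0.23 without blank replicate 1. Of 32 growth factors and receptors, ANGPT2 and FGF2 were higher and PDGFB lower, and FGF5, IGF1R and BMP4 were below in all 9 without passing. FOSL2, an AP-1 subunit, was below in all 9, with values from 16.7 to 23.5, with a median of 21.1 FPKM, against 28.8, 32.5 and 31.04 in blank cells, with a log2 fold change of -0.58, and JUND was above. IER3 was the immediate early gene that passed, and F3 the YAP target that passed. The call of IER3 was lost without any 1 of 7 libraries, and that of F3 without any 1 of 9. DLC1 was the YAP target below in all 9.

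Cytosolic ribosomal protein genes were not shared despite positive pooled changes for all 53. Their median was 1.13 with siSRSF1-3 and -0.01 and -0.18 with OE-LINC01134 and siSRSF1-2, and within siSRSF1-3 it was 1.96, 1.25 and 0.17 in replicates 1 to 3. RPL28 and RPS23 (3.77% of the list) were above blank in all 9, beside 2.99% of all genes tested. In the pooled contrast 0 passed by limma, by voom or at an unadjusted p, while 34 of the 53 were higher past the limma threshold with siSRSF1-3, and 0 with OE-LINC01134 or siSRSF1-2. Over all genes tested, 7.1% were higher with siSRSF1-3. The implied library size was smallest in siSRSF1-3 replicate 1 (0.712 times its own reads), and its part in this result was not tested. The 22 p53 targets, 16 NRF2 targets and 26 autophagy and lysosome genes had 0 members past the threshold and 0 on a single side of blank. Their medians of 0.04, -0.10 and 0.03 changed sign in other settings. At an unadjusted p under 0.05, 1 p53 target was higher, and limma's voom on recovered reads called 0 members of these lists. In every list with 0 higher genes by limma, voom also gave 0, and so did the unadjusted p outside the p53 targets. Of 11 SR splicing factors tested, SRSF1 was the single call and 0 were on a single side. The SRSF1 call was lost without any 1 of 7 libraries, each blank library among them. It was also lost with an equal FPKM sum, the replicate block and 2 groups of 9 and 3.

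**Figure D5:**
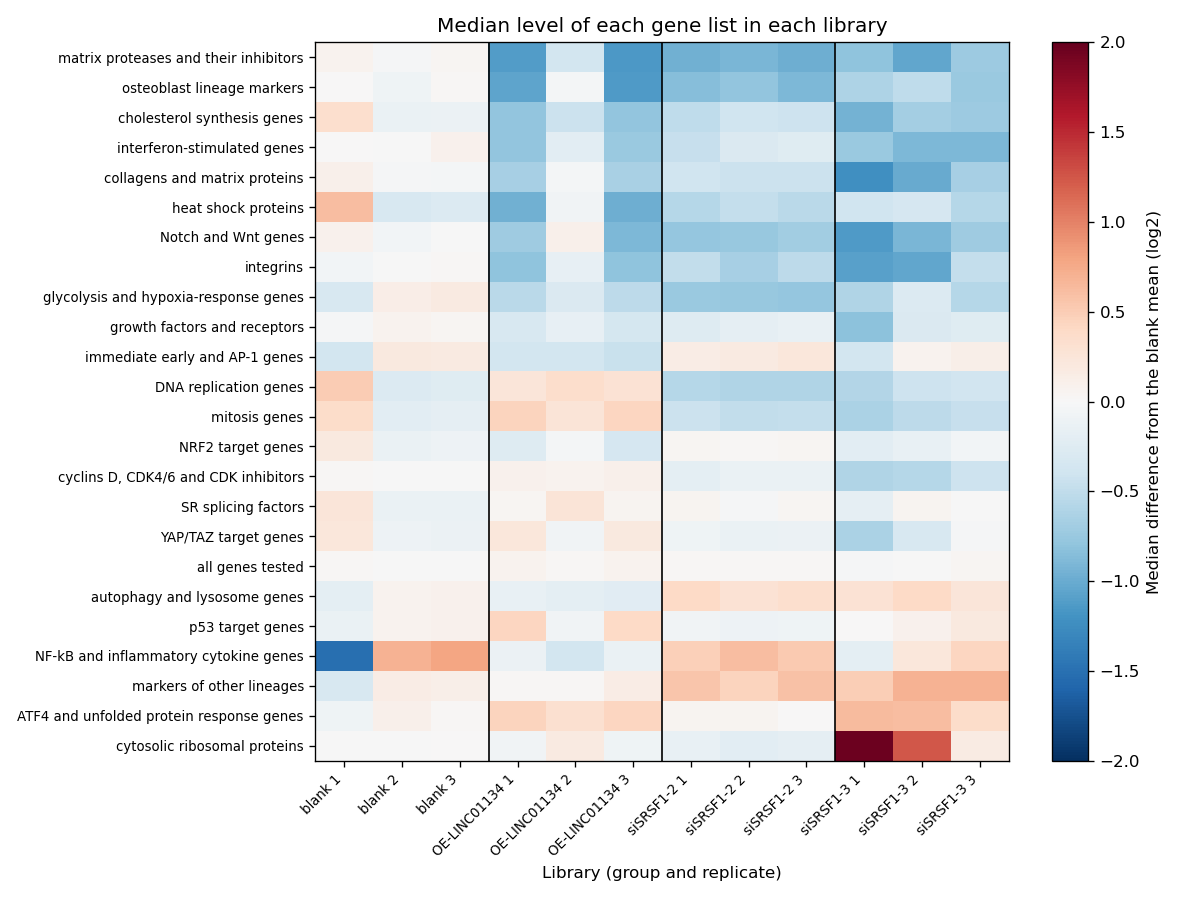
Median difference from the blank mean (colour, log2 scale from -2 to 2) over the tested members of each list (rows) in each of the 12 libraries (columns, separated by group). Matrix proteases, cholesterol synthesis and integrin rows are blue in all 9 manipulated columns, the ribosomal protein row is red in siSRSF1-3 replicates 1 (1.96) and 2 (1.25), and the NF-kB row is blue in blank replicate 1 (-1.51).

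The kinds of genes in each direction were counted. Of the 525 above, 427 (81.3%) were protein coding and 49 (9.33%) belonged to a transcription factor family as annotated by the authors, and of the 583 below these were 500 (85.8%) and 25 (4.29%). Over all genes tested the shares were 70.0% and 5.91%, and the difference between the directions was not tested. The median log2 fold changes of the genes above were 0.50 in OE-LINC01134, 0.41 with siSRSF1-2 and 0.67 with siSRSF1-3, and of those below -0.83, -0.66 and -1.0. By the F test among manipulations, 165 of the genes above (31.4%) and 164 of those below (28.1%) differed in the size of their change, beside 44.1% of all genes tested. The rule leaves out genes whose groups moved to opposite sides of blank, so these shares cannot be read against that of all genes. With a gap of at least 1.5 times between the nearest blank and manipulated libraries, 11 genes remained above and 33 below. At the boundary of the rule, PIP4P1 was just inside above (15.7166 FPKM in the highest blank and 15.7175 in the lowest manipulated library) and ZC3HC1 just outside (5.32549 and 5.32527). PFKFB3 was just inside below (7.84079 in the lowest blank and 7.8351 in the highest manipulated library) and COL4A2 just outside (41.7118 and 41.7167).

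The label of the cells was compared with marker genes. Of 12 osteoblast lineage markers 7 were tested, all 7 with a negative pooled log2 fold change, and SPP1, which encodes osteopontin, was below in all 9 and passed (34.7, 54.9 and 59.3 FPKM in blank cells, from 13.9 to 29.6, with a median of 24.8 in manipulated cells). The mean of ALPL in FPKM was not lower, at 5.66 in blank and 6.56 in manipulated cells, and it spread from 1.09 to 12.9 over all libraries. RUNX2 was at 1.55 to 3.92 FPKM over all libraries, while the mature osteoblast genes SP7, BGLAP and IBSP stayed at or below 0.384. The summed level over the 12 markers was 323 to 440 FPKM in blank and 150 to 376 in manipulated libraries. VIM, a general mesenchymal gene, was the largest part of it, with means of 207 FPKM in blank and 117 in manipulated cells. Of 20 markers of other lineages, 16 stayed below 0.5 FPKM in every library, and CD3E and ADIPOQ were at 0. HBB was the most abundant, at 5.93, 7.72 and 7.596 FPKM in blank cells and from 6.62 to 50.9, with a median of 12.2 in manipulated cells, which set the summed range of 9.24 to 11.7 in blank and 10.4 to 55.5 in manipulated libraries. In bulk RNA a change in the share of a kind of cell and a change in RNA per cell cannot be told apart.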

How the data were processed

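RNA was sequenced from 12 U2OS libraries in 4 groups of 3. The authors deposited 1 table of FPKM for every listed gene, with gene lengths, coordinates, full names and biotypes. The aligner and the counting program were not given in the sources used here. The labels give the organism as mouse and the submitters' processing notes name the mouse builds GRCm38 and mm10, but identifiers and names are human, so the build behind the listed coordinates is not known. The labels name a SMARTer kit and the supplementary methods NEBNext with poly-T selection. The labels number 3 replicates per group, where the supplementary methods describe 2 biological replicates per condition, and all 3 were used.

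The product of FPKM and length moved in equal steps within a library (100% of values within 0.01 read of a whole step), which gave the reads. Symbols were matched through full names (575 of 576 list symbols, 492 of them tested). Under R 4.3.3, limma 3.58.1 (lmFit, eBayes with trend, 8 residual degrees of freedom) was run on log2(FPKM + 0.1) for genes averaging 0.5 FPKM or more. A fold change on this scale understates the change of low genes. DESeq2 and edgeR were not used, since the table holds FPKM. Floors cover counting error only, while SD values measure the spread between libraries of a group. The SE is that of limma's contrast of group means. It rests on a residual variance pooled over the 4 groups and moderated across genes, so it is not the spread of any single group. The fit was tested on simulated data.

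The shared genes, the 23 lists and the tests were chosen with earlier results of these data known. Named genes were SRSF1, LINC01134, the 12 higher and 12 lower genes on one side of blank with the largest weakest single change, the 3 members of each list with the smallest adjusted p, and the 5 genes that differed most among manipulations. Other members on one side were named after their values were seen. Alternatives were the pseudocount, the filter, the scaling, the model, the replicate block and the omission of libraries. The replicate numbers did not pair the libraries: over 18 pairs with the same number, correlations of deviations were -0.0815 to 0.212. No sequences are shown because no human reference was used here. Some members of the gene lists are counted but not reported by name here.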

Additional observations from a re-analysis of the deposited data

Results flagged for a closer look

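Among the 24 genes chosen for a shared change, 3 responded to a different extent under the 3 manipulations by limma's F test over all genes tested, where 44.1% of genes passed. The 24 were chosen for a change under every manipulation, so their share cannot be read against that of all genes. ANGPT2 was higher under each manipulation and most with siSRSF1-2 (log2 fold changes 2.30 in OE-LINC01134, 3.32 with siSRSF1-2 and 2.28 with siSRSF1-3, adjusted p = 0.0043 from limma). NFE4 changed least with siSRSF1-2 (1.94, 1.08 and 2.23, adjusted p = 0.0183 from limma), as did MAL2 (1.43, 1.13 and 1.94, adjusted p = 0.0449 from limma). Groups of 3 libraries were too small for a test of single outlying values.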

How the results depend on the processing

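All 51 named genes that passed kept their direction in each of 26 other settings that gave them a value. For the 12 higher and 12 lower genes picked on one side of blank, omitting a library or changing the pseudocount cannot reverse it. The 51 passed in these same data, so the kept direction is no independent support. In the planned settings the pooled counts of 121 higher and 318 lower became 49 and 148 with a pseudocount of 1, 47 and 173 with an equal FPKM sum per library, 11 and 31 with 2 groups of 9 and 3, 290 and 576 at an unadjusted p, and 496 and 636 without a minimum fold change. With voom 512 were lower. Leaving a manipulation out of the contrast gave 246 higher without OE-LINC01134, 40 higher and 53 lower without siSRSF1-2, and 201 higher without siSRSF1-3. Genes on one side of blank numbered 297 above with an equal sum, 314 above with own read totals, 1092 below without a filter, and 11 above and 33 below with a gap of 1.5 times.

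For single manipulations, a pseudocount of 1 gave 93 higher and 263 lower in OE-LINC01134 and 530 lower with siSRSF1-3. The equal sum gave 93 and 237 in OE-LINC01134, 60 and 69 with siSRSF1-2 and 393 and 2195 with siSRSF1-3, and own read totals 664 and 1782 with siSRSF1-3. Voom gave 202 and 303 with siSRSF1-2. Separate fits of each pair gave 45 and 104 in OE-LINC01134, 389 and 479 with siSRSF1-2, and 58 and 163 with siSRSF1-3. The cause was not tested.

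Without each library in turn, pooled counts ranged from 14 to 266 higher and 13 to 580 lower, and genes on one side from 540 to 1246 above and 599 to 1301 below. Counts ranged from 35 to 394 and 107 to 1053 in OE-LINC01134, 20 to 289 and 44 to 367 with siSRSF1-2, 422 to 2485 and 518 to 2440 with siSRSF1-3, and 2269 to 11285 for the difference among manipulations.

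Settings chosen after seeing the data were without blank replicate 1 and OE-LINC01134 replicate 2 (191 higher and 663 lower pooled, 1716 above and 1899 below on one side, 489 and 1276 in OE-LINC01134, 209 and 457 with siSRSF1-2, 755 higher with siSRSF1-3), without siSRSF1-3 replicates 1 and 2 (1198 above and 974 below, 300 higher in OE-LINC01134, 353 and 374 with siSRSF1-2, 43 and 85 with siSRSF1-3, 2862 differing) and with near-identical libraries averaged (857 above, 1 higher and 0 lower in OE-LINC01134, 0 and 0 with each siRNA and in the pooled contrast, 1 differing). With the replicate block, 88 genes were higher and 225 lower, and 9 of the 51 named calls were lost. Of the 12 libraries 5 correlated best with one of their own number.

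Reads of paralogs, overlapping genes and pseudogenes could not be separated. SNORD11 and MIR6124 had at most 11 and 6 reads in a library, too few for their fold changes to be read.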
